A study of Mus musculus with 18 samples.

Results

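The comparison described here is the difference of 2 differences: the effect of PCN on peritoneal macrophages whose myeloid cells lack PXR (the PXR gene is Nr1i2), minus the effect of PCN on macrophages with intact floxed PXR alleles. It was chosen by the labels of genotype and agent, and it uses 18 of the 18 libraries of the study. The FF_DMSO and FF_PCN groups held 3 libraries each and came from PXRF/F mice, in which the PXR alleles are floxed. The dMye_DMSO and dMye_PCN groups held 6 libraries each and came from PXRΔMye mice, in which PXR is deleted in myeloid cells. All 4 groups shared a further homozygous deletion, which is not reported here, the C57BL/6 strain and an age of 6 weeks. The mice had received 1 mL of 3% thioglycollate, an irritant that recruits macrophages to the peritoneum, 3 days before collection. Cells attached for 4 h and were then kept for 12 h with 20 µM PCN or with DMSO, its solvent. Which Cre line removed PXR is not named in the labels, nor is the number of mice or cultures behind the libraries. P-values therefore measure only the spread between libraries, which may be technical.

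PXR is a nuclear receptor that senses foreign chemicals, bile acids and steroids, pairs with the retinoid X receptors, and in liver and intestine switches on genes of drug metabolism and transport such as Cyp3a11 and Abcb1a. PCN (pregnenolone 16α-carbonitrile) is a synthetic steroid and the standard activator of rodent PXR. In macrophages, nuclear receptors of this family and its relatives LXR and PPAR are known for control of lipid handling and of inflammatory genes. A difference between the PCN effects of the genotypes is the part of the response that varies with the genotype of the mice.

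Levels are given as CPM, that is counts scaled to the library total, and differences as log2 values: a positive difference means that PCN left the gene higher, relative to DMSO, in dMye than in FF. Library totals ran from 21993687 to 30228032 counts. The targeted gene could not check the genotype labels, because Nr1i2 was at the limit of detection: it had 2 counts in FF_DMSO 2, 1 in FF_PCN 2, 2 in dMye_DMSO 6 and 3 in dMye_PCN 1, and 0 in the other 14 libraries. Cyp3a11 had 1 count in all. The Y-linked gene Ddx3y stood at 43.7 to 62.7 CPM in the FF libraries and at 0 to 0.489 CPM in the dMye libraries, so sex follows genotype, and the 2 cannot be told apart in any difference below. All 20 macrophage markers were detected, with a summed level of 22381 to 23244 CPM in FF_DMSO, 20164 to 21734 in FF_PCN, 18601 to 23376 in dMye_DMSO and 17995 to 20046 in dMye_PCN. A large part of this sum is 1 gene, Lyz2, which averaged 7141, 4392, 4060 and 3273 CPM in the same order. The sum is therefore no measure of the typical marker. The 21 mesothelial and fibroblast markers, all detected, summed to 207 to 261 CPM in FF and 881 to 1110.5 CPM in dMye. Their part in the differences was not tested.

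PCN moved 190 of 13409 tested genes by different amounts in the 2 genotypes at an adjusted p under 0.05, which is 1.42% of the genes tested, and 1724 passed an unadjusted p of 0.05. Among the 190 genes, 100 (0.746% of those tested) were higher after PCN in dMye than in FF, and 90 (0.671%) were lower. The differences were modest: their median size was 0.43 (quartiles 0.35 and 0.61), the smallest was 0.24, and 16 reached 2-fold. In 190 of 190 called genes the PCN effect was larger in size in FF than in dMye, with median sizes of 0.59 and 0.16. These genes were chosen by the same difference, and 70.7% of all tested genes also had the larger effect in FF, where 3 libraries a group gave a median SE of 0.12 against 0.08 in dMye. The effects pointed the same way in both genotypes in 162 of the called genes and opposite ways in 28. Opposite ways made up 14.7% of the called genes, against 33.6% of all tested genes. In 0 of those 28 did the dMye effect itself pass an adjusted p of 0.05 in edgeR (3 passed an unadjusted p of 0.05), so its direction in dMye was not resolved. Every one of the 100 higher genes had its larger fall in FF, and each of the 90 lower genes its larger rise in FF.

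**Figure D1:**
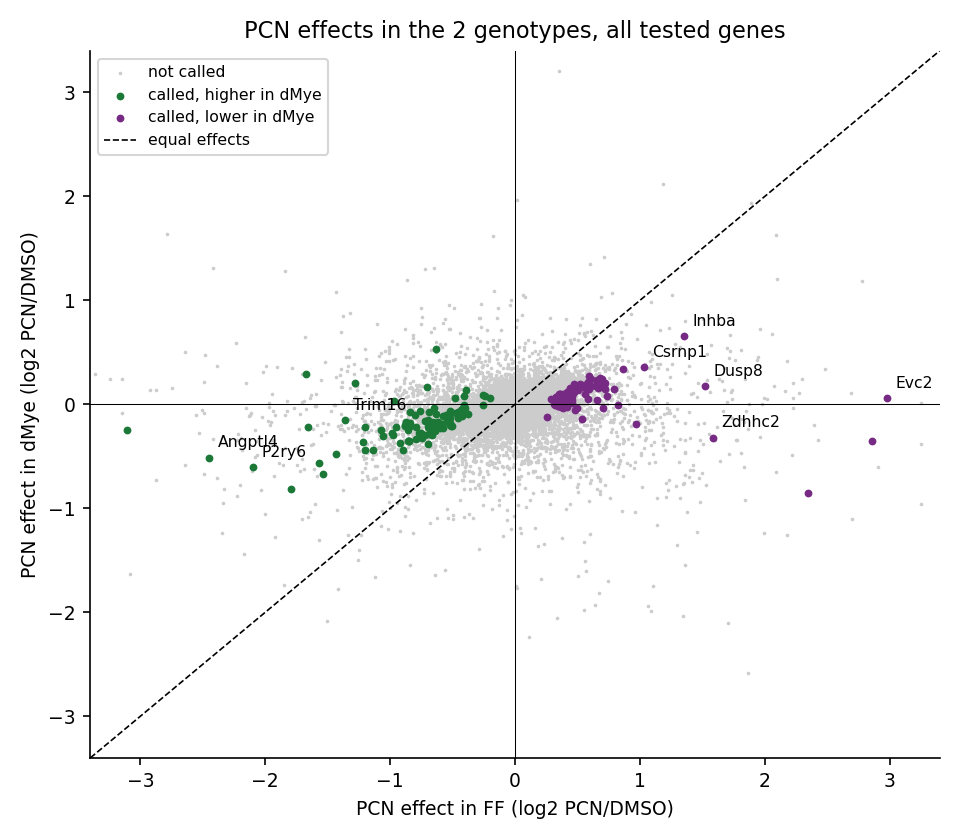
Each point is 1 of 13409 tested genes, by its PCN effect in FF (x axis, log2 PCN over DMSO) and in dMye (y axis, same unit); the dashed line marks equal effects, and 40 genes, 1 of them called (Slit2), lie beyond the axes. The 100 genes called higher in dMye lie left of the dashed line and the 90 called lower lie right of it, all nearer to 0 on the y axis than on the x axis.

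The size of the difference in single libraries can be described by the median shift of the 190 genes from the DMSO mean of their own genotype, counted as positive in the direction of the FF effect. It was 0.545 to 0.616 (log2) in the FF_PCN libraries and 0.0862 to 0.177 in the dMye_PCN libraries, without overlap, and -0.02 to 0.02 in the FF_DMSO and -0.03 to 0.02 in the dMye_DMSO libraries. The genes were selected on these libraries, so the separation is a description. The level gap between the genotypes swapped sign between DMSO and PCN in 118 of the 190 genes (62.1%, against 27.2% of all tested genes). It was wider under PCN in 51 (26.8%, against 38.5%) and wider under DMSO in 21 (11.1%, against 34.4%). A change of this gap is the same difference that selected the genes, so these shares too are a description.

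**Figure D2:**
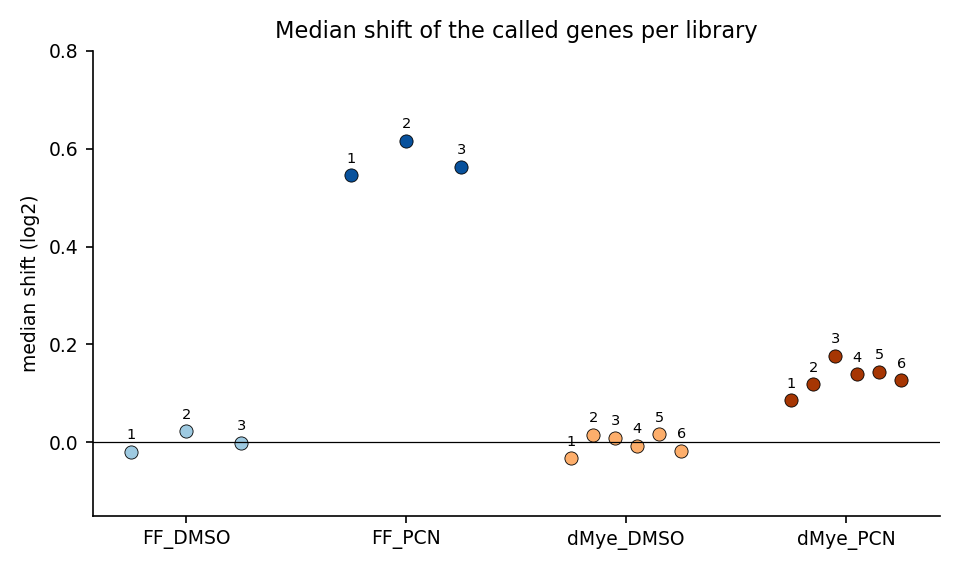
Median shift of the 190 called genes in each library from the DMSO mean of its genotype (y axis, log2, positive in the direction of the FF effect), with libraries numbered within the 4 groups. FF_PCN libraries lie at 0.545 to 0.616 and dMye_PCN libraries at 0.0862 to 0.177.

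The share of genes called was larger at higher abundance. Among genes under 1 CPM, 3 of 2060 were called (0.146%), with a median SE of 0.76. From 1 to 10 CPM the count was 22 of 3093 (0.711%), from 10 to 100 CPM 102 of 6300 (1.62%), and at 100 CPM and over 63 of 1956 (3.22%), with a median SE of 0.08. A 95% interval inside 0.5 on the log2 scale in either direction, a bound chosen after the values were seen, was reached by 7144 genes (53.3%). For these genes, differences above 1.41-fold lay outside the interval; for genes under 1 CPM, differences of that size were mostly not detectable at this depth and number of libraries.

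The genes called lower in dMye included stress-response and signal-feedback genes. Those shown by library or sequence are named here with their roles. Gdf15 (chromosome 8, 70629393 to 70632456, minus strand, GRCm38) encodes a secreted cytokine of the TGF-beta superfamily that cells make under stress. Ppp1r15a (chromosome 7, 45522916 to 45526268, minus strand) encodes GADD34, which directs a phosphatase to eIF2α and so restores protein synthesis after stress. Csrnp1 (chromosome 9, 119971163 to 119984658, minus strand) encodes a nuclear protein first known as an axin-induced gene. Dusp1 (chromosome 17, 26505590 to 26562128, minus strand) and Dusp8 (chromosome 7, 142079490 to 142095843, minus strand) encode phosphatases that switch off MAP kinases. Coordinates are whole gene bodies in GENCODE M21.

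Promoter sequence is shown for this group because one short motif stood in a larger share of its promoters than of others. The motif was picked after the shares of all searched motifs were seen, and AGGTCA, given below, also stood in a larger share. Genes called lower had a median level of 81.1 CPM, against 19.3 CPM for all tested genes, and the shares are not matched for level. The window was 250 bases before to 50 bases after the first start listed for a gene in RefSeq (GRCm38.p6), and a promoter was listed for 10392 tested genes, among them 73 called lower and 71 called higher. The letters TGACGTCA, the palindromic element bound by CREB and ATF proteins, were present in 9 of the 73 promoters of genes called lower (12.3%), in 1 of the 71 of genes called higher (1.41%, Slx4ip), in 3.17% of all tested and in 1.88% of all 27025 promoters. This is a description without a test, and a match is not evidence of binding. The 9 genes were Ppp1r15a, Dusp1, Flcn (folliculin, a regulator of mTORC1 at the lysosome), Ppp1r12c (a regulatory subunit of myosin phosphatase), Plk2 (polo-like kinase 2), Dusp8, Cltb (a clathrin light chain), Sphk2 (a sphingosine kinase) and Zfyve27 (protrudin, of the endoplasmic reticulum), of which all but Ppp1r15a, Dusp1 and Dusp8 are named after their values were seen. The match in Sphk2 starts 3 bases after the RefSeq start and is not printed. The others are shown 5′ to 3′ on the gene's strand with 20 bases on each side and the motif in capitals.
Ppp1r15a: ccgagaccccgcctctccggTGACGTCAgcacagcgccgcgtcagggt
Dusp1: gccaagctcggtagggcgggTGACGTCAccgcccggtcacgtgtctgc
Flcn: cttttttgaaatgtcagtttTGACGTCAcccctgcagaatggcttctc
Ppp1r12c: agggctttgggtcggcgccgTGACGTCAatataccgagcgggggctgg
Plk2: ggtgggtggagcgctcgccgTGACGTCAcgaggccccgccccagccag
Dusp8, first match: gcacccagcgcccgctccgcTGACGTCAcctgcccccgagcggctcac
Dusp8, second match: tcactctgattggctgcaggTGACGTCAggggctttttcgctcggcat
Cltb: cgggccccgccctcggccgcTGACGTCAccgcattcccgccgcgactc
Zfyve27: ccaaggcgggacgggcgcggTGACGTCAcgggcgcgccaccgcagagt

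These stretches lie, in the order shown, at chr7:45526253-45526300 (minus strand), chr17:26508588-26508635 (minus strand), chr11:59810061-59810108 (minus strand), chr7:4501722-4501769 (minus strand), chr13:110394962-110395009 (plus strand), chr7:142095364-142095411 (minus strand), chr7:142095320-142095367 (minus strand), chr13:54611367-54611414 (minus strand) and chr19:42170541-42170588 (plus strand). The motif starts 12 bases before that RefSeq start in Ppp1r15a, 143 in Dusp1, 49 in Flcn, 69 in Ppp1r12c, 62 in Plk2, 107 and 63 in Dusp8, 21 in Cltb and 6 in Zfyve27. The stretches of Dusp1 and Dusp8 lie inside the longer GENCODE gene bodies given above. Differences of the genes not described elsewhere were Ppp1r12c -0.35 (adjusted p = 0.0224, called in 23 of 27 alternatives), Plk2 -0.31 (adjusted p = 0.0227, called in 23 of 27 alternatives), Cltb -0.41 (adjusted p = 0.026, called in 22 of 27 alternatives), Sphk2 -0.26 (adjusted p = 0.0359, called in 15 of 27 alternatives) and Zfyve27 -0.38 (adjusted p = 0.0391, called in 14 of 27 alternatives), where the alternatives are the other tools, scalings, filters and left-out libraries. Membership of the 9 thus varies with the setting. All 9 differences are negative because the set was called lower.

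Other motifs were searched on both strands in the same windows. The nuclear receptor half-site AGGTCA was present in 15 of 73 promoters of genes called lower (20.5%) and in 5 of 71 of genes called higher (7.04%), against 12.2% of tested genes. The variant half-site AGTTCA stood in 13.7% and 9.86%, against 10.4%. The AP-1 letters TGANTCA stood in 2.74% of lower and 8.45% of higher genes against 5.23% of tested genes, the E-box CACGTG in 8.22% and 5.63% against 9.91%, and TATAAA in 9.59% and 12.7% against 7.54%. Paired half-sites, which PXR is known to bind, were searched in exact letters. The arrangements DR3 and DR4 were searched with either half-site, and ER6 with AGTTCA only. They were in 0 of the 10392 tested promoters, and in only 3 (DR3), 7 (DR4) and 2 (ER6) of all 27025. Exact letters are too rare in these windows for the 0 to tell whether PXR sites were absent. Full windows are shown for Gdf15 and Csrnp1, the genes with the smallest p among the largest lower differences, with the AGGTCA match in capitals, and for Enpp1, the gene with the smallest p among the largest higher differences, in which none of the searched motifs was found. The windows lie at chr8:70632407-70632706, chr9:119984693-119984992 and chr10:24712110-24712409, all on the minus strand; 2 starts are listed for Gdf15 and 4 for Csrnp1, and the first was used.
Gdf15: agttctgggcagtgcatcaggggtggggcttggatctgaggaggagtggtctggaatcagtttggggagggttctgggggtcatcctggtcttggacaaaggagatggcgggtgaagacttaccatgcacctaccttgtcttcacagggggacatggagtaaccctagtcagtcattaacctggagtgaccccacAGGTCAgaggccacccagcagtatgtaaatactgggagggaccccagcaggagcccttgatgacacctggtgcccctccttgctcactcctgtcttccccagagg
Csrnp1: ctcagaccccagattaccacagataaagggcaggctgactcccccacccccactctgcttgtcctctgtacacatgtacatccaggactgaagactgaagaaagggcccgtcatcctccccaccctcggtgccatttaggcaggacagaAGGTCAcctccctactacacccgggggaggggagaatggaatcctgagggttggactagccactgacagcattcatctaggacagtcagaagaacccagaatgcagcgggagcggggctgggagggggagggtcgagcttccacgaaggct
Enpp1: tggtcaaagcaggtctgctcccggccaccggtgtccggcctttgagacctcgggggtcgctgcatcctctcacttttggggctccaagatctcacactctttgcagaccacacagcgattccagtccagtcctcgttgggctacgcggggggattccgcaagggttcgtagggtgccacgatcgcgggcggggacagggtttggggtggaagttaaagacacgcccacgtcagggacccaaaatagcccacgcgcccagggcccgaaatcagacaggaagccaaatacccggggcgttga

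Gdf15 stood at 119.7, 113 and 113 CPM in the FF_DMSO libraries and 197, 198 and 193 CPM in the FF_PCN libraries. Gdf15 in dMye had a lowest, median and highest level of 131, 140.3 and 154 CPM with DMSO and 149.7, 157 and 163 CPM with PCN. All FF_PCN libraries were above every other library, and the FF_DMSO libraries were below every dMye library. The difference was -0.64 (SE 0.0687, adjusted p = 5.16e-05). Csrnp1 stood at 12.1, 14 and 13.2 CPM in the FF_DMSO libraries and 26.8, 25.9 and 26.6 CPM in the FF_PCN libraries. Csrnp1 in dMye had a lowest, median and highest level of 16.2, 17.4 and 19.1 CPM with DMSO and 21.1, 21.8 and 24.8 CPM with PCN. Its groups did not overlap, with FF_DMSO lowest and FF_PCN highest, and the difference was -0.67 (SE 0.101, adjusted p = 0.00167). Ppp1r15a stood at 182, 188 and 178 CPM in the FF_DMSO libraries and 329, 309.7 and 342 CPM in the FF_PCN libraries. Ppp1r15a in dMye had a lowest, median and highest level of 212, 220.5 and 231 CPM with DMSO and 266, 279.5 and 304 CPM with PCN. Again no library of FF_PCN reached down to dMye_PCN, and the difference was -0.52 (SE 0.069, adjusted p = 0.000442). Dusp1 stood at 70.3, 68.8 and 71.2 CPM in the FF_DMSO libraries and 116, 109 and 106 CPM in the FF_PCN libraries. Dusp1 in dMye had a lowest, median and highest level of 61.3, 66 and 71.4 CPM with DMSO and 71.7, 76.5 and 80.8 CPM with PCN. The DMSO libraries of the 2 genotypes overlapped, while all FF_PCN libraries were above all dMye_PCN libraries, and the difference was -0.48 (SE 0.0714, adjusted p = 0.00141). These 4 calls held when each library was left out in turn.

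**Figure D3:**
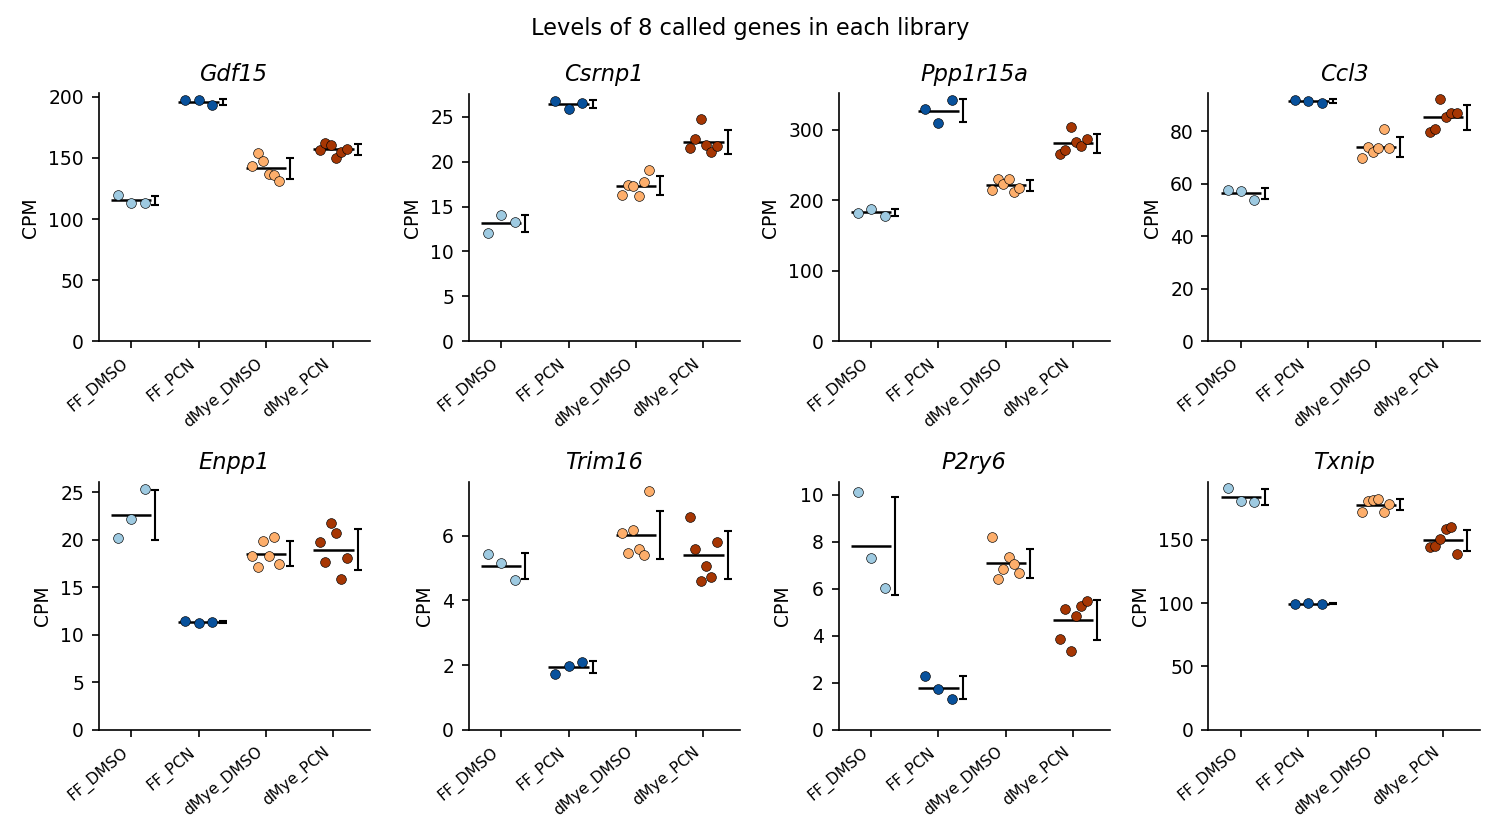
CPM of 8 called genes (y axis, from 0) in each of the 18 libraries by group; points are libraries, horizontal lines group means and bars SD (n = 3 in FF, 6 in dMye). In the top row (Gdf15, Csrnp1, Ppp1r15a, Ccl3) the step from DMSO to PCN is upward and larger in FF; in the bottom row (Enpp1, Trim16, P2ry6, Txnip) the FF_PCN mean lies below the FF_DMSO mean by more than the dMye_PCN mean lies below or near the dMye_DMSO mean.

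Of the 28 tested immediate-early and MAP kinase feedback genes, 4 were called lower in dMye and 0 higher in edgeR (14.3% called, median difference -0.14, against 1.42% and -0.01 over all genes). They were Dusp1, Dusp8 with -1.35 (SE 0.296, adjusted p = 0.0238), the AP-1 subunit Junb with -0.39 (SE 0.0821, adjusted p = 0.0208), and Ier5 with -0.31 (adjusted p = 0.0431, called in 12 of 27 alternatives). DESeq2 and the weighted voom fit each called 6 of the list lower and 1 higher. In edgeR 9 of the 28 differences were positive, the highest at 0.46. In the list of the integrated stress and unfolded protein responses, 3 of 25 were called lower and 1 higher (16% called, median -0.05). The lower ones were Ppp1r15a, Trib3 (a pseudokinase induced by ATF4 and CHOP) with -0.26 (adjusted p = 0.0475, called in 9 of 27 alternatives) and Atf3, a stress-induced transcription factor that averaged 486 to 685 CPM in FF and 464 to 531 CPM in dMye, with a difference of -0.32 (SE 0.0695, adjusted p = 0.0226). Psat1, which makes serine, went the other way with 0.37 (SE 0.0821, adjusted p = 0.0246). Among 20 genes known to be induced by glucocorticoids, 3 were called lower and 0 higher (15%, median -0.20): Dusp1, which is also in the feedback list, the transglutaminase Tgm2 with -0.29 (SE 0.0622, adjusted p = 0.0208), and the kinase Sgk1 with -0.26 (SE 0.0634, adjusted p = 0.0394). Left out 1 at a time, libraries ended the call of Dusp8 in 5 (adjusted p up to 0.0874, without FF_DMSO 1), Junb in 3 (adjusted p up to 0.0816, without FF_PCN 3), Atf3 in 4 (adjusted p up to 0.0958, without FF_DMSO 1), Psat1 in 3 (adjusted p up to 0.0818, without FF_PCN 2), Tgm2 in 4 (adjusted p up to 0.108, without FF_DMSO 1) and Sgk1 in 13 (adjusted p up to 0.119, without FF_DMSO 3) of 18 cases. Without FF_DMSO 1, the counts of lower calls in these 3 lists fell to 1 each.

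Inflammatory genes driven by NF-kB gave 1 call among 27 tested members (3.7%, median -0.14). It was Ccl3, the chemokine MIP-1α, which stood at 57.7, 57.3 and 53.8 CPM in the FF_DMSO libraries and 92, 91.6 and 90.7 CPM in the FF_PCN libraries. Ccl3 in dMye had a lowest, median and highest level of 69.7, 73.6 and 80.8 CPM with DMSO and 79.5, 86 and 92.4 CPM with PCN. FF_DMSO libraries were below all others, and dMye_PCN 3 was above the FF_PCN libraries. The difference was -0.52 (SE 0.0855, adjusted p = 0.00385), and it held without each library in turn. The 3 members with the smallest SE were not called: Tnfaip2 with -0.14 (95% interval -0.25 to -0.03, adjusted p = 0.244), Nfkb2 with -0.07 (95% interval -0.22 to 0.08, adjusted p = 0.754) and Tnfaip3 with -0.13 (95% interval -0.29 to 0.03, adjusted p = 0.507). Tnf had a difference of -0.22 (95% interval -0.46 to 0.01, adjusted p = 0.428), and Il1b was too low to test, with 89 counts in all libraries together.

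Inhba, which encodes the subunit of activin A, stood at 22.7, 25.4 and 25.2 CPM in the FF_DMSO libraries and 57.4, 70.2 and 57.4 CPM in the FF_PCN libraries. Inhba in dMye had a lowest, median and highest level of 22, 28 and 30.1 CPM with DMSO and 32.8, 43.8 and 47.5 CPM with PCN. The DMSO groups overlapped, and every FF_PCN library was above every dMye_PCN library. Its difference was -0.70 (SE 0.145, adjusted p = 0.0197), the only call among 23 tested genes of activin and TGF-beta signalling (4.35%, median -0.04). Rin1, an effector of RAS that acts on RAB5, stood at 2.02, 2.09 and 1.89 CPM in the FF_DMSO libraries and 4.43, 3.79 and 3.35 CPM in the FF_PCN libraries. Rin1 in dMye had a lowest, median and highest level of 4.23, 5.26 and 6.82 CPM with DMSO and 3.68, 4.73 and 6.06 CPM with PCN. Here FF_PCN overlapped dMye_PCN, the FF_DMSO libraries were below all dMye libraries, and the difference was -1.16 (SE 0.232, adjusted p = 0.0152). Alkbh7, a mitochondrial protein of the AlkB family, stood at 10.5, 11.7 and 10.2 CPM in the FF_DMSO libraries and 16.3, 13.7 and 16.4 CPM in the FF_PCN libraries. Alkbh7 in dMye had a lowest, median and highest level of 14.9, 15.5 and 18.8 CPM with DMSO and 13.2, 14.9 and 15.1 CPM with PCN. Its difference was -0.68 (SE 0.132, adjusted p = 0.0116). FF_DMSO libraries were the lowest and the other 3 groups overlapped, so the genotypes differed mainly under DMSO. Pcnx, the pecanex gene, stood at 36.6, 36 and 38.3 CPM in the FF_DMSO libraries and 66.4, 60.7 and 66.3 CPM in the FF_PCN libraries. Pcnx in dMye had a lowest, median and highest level of 30.6, 32.3 and 47 CPM with DMSO and 29.8, 34.2 and 42.2 CPM with PCN. All FF_PCN libraries were above all others, the other 3 groups overlapped, and the difference was -0.84 (SE 0.173, adjusted p = 0.0208).

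The remaining largest lower differences were Evc2 -2.92 (SE 0.634, adjusted p = 0.0227), Zdhhc2 -1.91 (SE 0.421, adjusted p = 0.0246), Pex16 -0.74 (SE 0.172, adjusted p = 0.0326), Cyr61 -0.66 (SE 0.162, adjusted p = 0.0431) and Tnfrsf12a -0.61 (SE 0.141, adjusted p = 0.0307). Evc2 acts in hedgehog signalling at the cilium, Zdhhc2 is a palmitoyltransferase, Pex16 inserts peroxisomal membrane proteins, Cyr61 is a matricellular protein, and Tnfrsf12a is the receptor of TWEAK. Evc2 averaged 0.0609 to 0.518 CPM in FF and 1.86 to 1.94 CPM in dMye and Zdhhc2 0.335 to 1 CPM in FF and 1.61 to 1.28 CPM in dMye, so both rest on few counts. Cyr61 averaged 3.17 to 5.2 CPM in FF and 23.5 to 24.9 CPM in dMye, a level gap between the genotypes that moved with the mesothelial and fibroblast marker sums above; the part of those cells in its difference was not tested. The calls were lost without 1 library for Inhba in 3 (adjusted p up to 0.0949, without FF_DMSO 1), Rin1 in 3 (adjusted p up to 0.0625, without FF_DMSO 1), Alkbh7 in 2 (adjusted p up to 0.0549, without FF_DMSO 1), Pcnx in 6 (adjusted p up to 0.0874, without FF_DMSO 1), Evc2 in 4 (adjusted p up to 0.0916, without FF_DMSO 1), Zdhhc2 in 5 (adjusted p up to 0.0958, without FF_DMSO 1), Pex16 in 6 (adjusted p up to 0.102, without FF_PCN 3), Cyr61 in 11 (adjusted p up to 0.18, without FF_DMSO 3) and Tnfrsf12a in 8 (adjusted p up to 0.085, without FF_DMSO 1) of 18 cases.

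Bbc3, Pmaip1 and Bcl2l1, which act in the intrinsic death pathway, were called lower and are named after their values were seen. No list held that pathway, so these genes say nothing of its other members. Bbc3 (PUMA) and Pmaip1 (NOXA) encode BH3-only activators of apoptosis, and Bcl2l1 encodes BCL-X, which in its long form opposes it. Their differences were -0.42 (SE 0.0884, adjusted p = 0.0208), -0.43 (SE 0.104, adjusted p = 0.0412) and -0.34 (SE 0.0684, adjusted p = 0.0167). Bbc3 averaged 75.7 to 97.3 CPM in FF and 86 to 84.3 CPM in dMye, and Bcl2l1 averaged 121 to 164 CPM in FF and 121 to 133 CPM in dMye. Also named after their values were seen were Rhov, an atypical small GTPase, with -0.46 (SE 0.0672, adjusted p = 0.00141), the hexokinase gene Hk3 with -0.29 (SE 0.0513, adjusted p = 0.00637), Flcn with -0.28 (SE 0.0567, adjusted p = 0.0165), and Rxrb, which encodes a retinoid X receptor that pairs with PXR, with -0.31 (SE 0.0687, adjusted p = 0.0262). Rhov kept its call without each library; the calls were lost for Bbc3 in 4 (adjusted p up to 0.0851, without FF_PCN 1), Pmaip1 in 14 (adjusted p up to 0.154, without FF_DMSO 1), Bcl2l1 in 3 (adjusted p up to 0.0773, without FF_DMSO 1), Hk3 in 1 (adjusted p up to 0.0557, without FF_DMSO 1), Flcn in 4 (adjusted p up to 0.0821, without FF_DMSO 1) and Rxrb in 7 (adjusted p up to 0.0958, without FF_DMSO 1) of 18 cases. Vegfa, a growth factor of blood vessels, was the 1 call among 16 hypoxia targets (6.25%), with -0.33 (SE 0.0741, adjusted p = 0.0252). Gabarapl1, of the autophagosome membrane, was the 1 among 20 autophagy genes (5%), with -0.32 (SE 0.0663, adjusted p = 0.0197). Over all genes 1.42% were called. Vegfa lost its call in 7 and Gabarapl1 in 2 of the 18 cases, with adjusted p up to 0.129 (without FF_DMSO 3) and 0.0804 (without FF_DMSO 1).

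Among genes called higher in dMye, Enpp1 (chromosome 10, 24637914 to 24712159, minus strand), an ectoenzyme that cleaves extracellular ATP and makes pyrophosphate, stood at 20.2, 22.2 and 25.4 CPM in the FF_DMSO libraries and 11.4, 11.3 and 11.4 CPM in the FF_PCN libraries. Enpp1 in dMye had a lowest, median and highest level of 17.1, 18.3 and 20.2 CPM with DMSO and 15.9, 18.9 and 21.7 CPM with PCN. The FF_PCN libraries were below all others, which overlapped, and the difference was 1.00 (SE 0.137, adjusted p = 0.000572). Trim16 (chromosome 11, 62820231 to 62850808, plus strand), an E3 ubiquitin ligase tied to autophagy of damaged lysosomes, stood at 5.42, 5.14 and 4.63 CPM in the FF_DMSO libraries and 1.73, 1.98 and 2.1 CPM in the FF_PCN libraries. Trim16 in dMye had a lowest, median and highest level of 5.41, 5.83 and 7.38 CPM with DMSO and 4.61, 5.33 and 6.57 CPM with PCN. Its FF_PCN libraries were likewise below all others, and the difference was 1.21 (SE 0.194, adjusted p = 0.00352). P2ry6 (chromosome 7, 100937630 to 100974649, minus strand), the receptor for extracellular UDP, stood at 10.1, 7.3 and 6.03 CPM in the FF_DMSO libraries and 2.29, 1.74 and 1.32 CPM in the FF_PCN libraries. P2ry6 in dMye had a lowest, median and highest level of 6.44, 6.93 and 8.19 CPM with DMSO and 3.36, 4.99 and 5.48 CPM with PCN. Both PCN groups were below the DMSO groups, FF_PCN the lowest without overlap, and the difference was 1.49 (SE 0.263, adjusted p = 0.00618). Kctd12b (chromosome X, 153685154 to 153696391, minus strand) stood at 8, 7.88 and 9.54 CPM in the FF_DMSO libraries and 2.02, 2.43 and 2.77 CPM in the FF_PCN libraries. Kctd12b in dMye had a lowest, median and highest level of 7.2, 8.01 and 8.76 CPM with DMSO and 3.62, 4.59 and 5.24 CPM with PCN. The groups lay in the same order, and the difference was 0.98 (SE 0.18, adjusted p = 0.00808).

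Slit2, a secreted guidance cue for axons and leukocytes, had 16, 6 and 8 counts in FF_DMSO and 0 in all 3 FF_PCN libraries, against 24 to 51 counts in dMye_DMSO and 37 to 86 in dMye_PCN. A count of 0 allows up to 0.117 to 0.124 CPM in the FF_PCN libraries, for counting error only. The adjusted p was 0.00385, and no fold is given because the fitted value depends on the prior count. Slit2 is known to be made by stromal cells, and its higher level in dMye went with the higher mesothelial and fibroblast sums above; their part in its difference was not tested. Of the 21 markers of those cells, 0 were called in edgeR or DESeq2 and 1 passed an unadjusted p of 0.05 (median difference 0.14, 19 positive). In these bulk cultures fewer cells of a type and less RNA per cell cannot be told apart.

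The other largest higher differences were Mrgprf 2.86 (SE 0.682, adjusted p = 0.0369), Cenpk 1.97 (SE 0.468, adjusted p = 0.0367), Arrdc3 1.49 (SE 0.356, adjusted p = 0.0413), Gucy1a3 1.44 (SE 0.323, adjusted p = 0.0262), Slx4ip 1.16 (SE 0.28, adjusted p = 0.0441) and C5ar1 1.00 (SE 0.229, adjusted p = 0.0306). C5ar1 encodes the receptor of the complement fragment C5a, Arrdc3 an arrestin-like protein related to Txnip, Gucy1a3 a subunit of the nitric oxide receptor guanylate cyclase, Cenpk a kinetochore protein, Slx4ip a partner of the SLX4 nuclease, and Mrgprf an orphan receptor. Mrgprf, Cenpk and Gucy1a3 were under 1 CPM in both FF groups. Mrgprf averaged 0.732 to 0.0815 CPM in FF and 1.86 to 1.57 CPM in dMye. Gucy1a3 averaged 0.911 to 0.286 CPM in FF and 4.79 to 4.1 CPM in dMye, and Cenpk 0.828 to 0.255 and 0.869 to 1.08 CPM. The higher levels of Mrgprf and Gucy1a3 in dMye went with the higher mesothelial and fibroblast sums above. The part of those cells in these differences was not tested. C5ar1 averaged 9.24 to 3.06 CPM in FF and 7.5 to 5.06 CPM in dMye. All 6 lost their call without 1 library or more: Mrgprf in 10 (adjusted p up to 0.131, without FF_DMSO 3), Cenpk in 9 (adjusted p up to 0.12, without FF_DMSO 3), Arrdc3 in 12 (adjusted p up to 0.137, without FF_DMSO 1), Gucy1a3 in 5 (adjusted p up to 0.102, without FF_PCN 3), Slx4ip in 15 (adjusted p up to 0.121, without FF_DMSO 1) and C5ar1 in 7 (adjusted p up to 0.107, without FF_DMSO 1) of 18 cases.

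Some higher differences were smaller but rested on more counts, and these genes are named after their values were seen. Txnip, which binds thioredoxin and restrains glucose uptake, stood at 191, 180.4 and 179.7 CPM in the FF_DMSO libraries and 99.4, 99.9 and 99.5 CPM in the FF_PCN libraries. Txnip in dMye had a lowest, median and highest level of 172, 179.5 and 182 CPM with DMSO and 139, 148 and 160.2 CPM with PCN. The DMSO groups overlapped, the FF_PCN libraries were below every dMye_PCN library, and the difference was 0.61 (SE 0.0687, adjusted p = 5.16e-05). Shtn1 (shootin-1, of the axonal cytoskeleton) stood at 107, 105 and 107 CPM in the FF_DMSO libraries and 64.6, 63 and 62.7 CPM in the FF_PCN libraries. Shtn1 in dMye had a lowest, median and highest level of 67.8, 73.3 and 78.1 CPM with DMSO and 63.4, 65.2 and 66.8 CPM with PCN. Here the gap between the genotypes lay under DMSO, the PCN groups were nearly level, and the difference was 0.56 (SE 0.0626, adjusted p = 5.16e-05). Ly6e, a GPI-anchored protein induced by interferon, stood at 144, 141 and 141 CPM in the FF_DMSO libraries and 79.1, 74.9 and 72.7 CPM in the FF_PCN libraries. Ly6e in dMye had a lowest, median and highest level of 118, 128 and 134 CPM with DMSO and 99.4, 114 and 118 CPM with PCN. Its difference was 0.68 (SE 0.0824, adjusted p = 0.000134). FF_DMSO libraries were the highest and FF_PCN libraries the lowest, without overlap with dMye. It belongs to a family of similar genes, which can share reads. Esyt1, a tether between the endoplasmic reticulum and the plasma membrane, had 0.49 (SE 0.0631, adjusted p = 0.000321). All 4 kept their call without each library.

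Of 20 tested PPAR targets and genes of fatty acid oxidation, 4 were called higher in dMye and 0 lower (20%, median difference 0.08, against 1.42% and -0.01 over all genes). Angptl4, a secreted inhibitor of lipoprotein lipase, stood at 9.98, 8.54 and 11 CPM in the FF_DMSO libraries and 0.629, 1.56 and 3.19 CPM in the FF_PCN libraries. Angptl4 in dMye had a lowest, median and highest level of 3.06, 4.21 and 5.4 CPM with DMSO and 2.35, 2.96 and 3.54 CPM with PCN. FF_DMSO libraries were above all others, FF_PCN overlapped dMye_PCN, and the difference was 1.93 (SE 0.395, adjusted p = 0.0197). Ucp2, an inner mitochondrial membrane carrier, averaged 294 to 182 CPM in FF and 240.3 to 196 CPM in dMye, with a difference of 0.37 (SE 0.0786, adjusted p = 0.0208). Cpt1a, which admits fatty acids to mitochondria, averaged 223 to 136 CPM in FF and 154 to 118 CPM in dMye, with 0.31 (SE 0.072, adjusted p = 0.0304). The fourth was Acaa2, a thiolase of fatty acid oxidation, with 0.46 (adjusted p = 0.0423, called in 15 of 27 alternatives). Lipa, the lysosomal acid lipase that frees cholesterol from its esters, was the 1 call among 21 genes of lipoprotein uptake and storage in edgeR (4.76%, median 0.02), where DESeq2 called 2 higher and 1 lower (Marco, a scavenger receptor). Lipa stood at 1596, 1554 and 1552 CPM in the FF_DMSO libraries and 1089, 1056 and 1094 CPM in the FF_PCN libraries. Lipa in dMye had a lowest, median and highest level of 1234, 1309 and 1377 CPM with DMSO and 1037, 1130.1 and 1178 CPM with PCN. It differed between genotypes mainly under DMSO, by 0.30 (SE 0.0587, adjusted p = 0.0112) in the PCN effect. Pla2g7, the lipoprotein-associated phospholipase, had 0.35 (SE 0.0864, adjusted p = 0.046) and is named after its values were seen. Lipa kept its call without each library; the call was lost for Angptl4 in 3 (adjusted p up to 0.0663, without FF_PCN 2), Ucp2 in 4 (adjusted p up to 0.0916, without FF_DMSO 1), Cpt1a in 9 (adjusted p up to 0.107, without FF_DMSO 1) and Pla2g7 in 13 (adjusted p up to 0.101, without FF_DMSO 1) of 18 cases. The PPAR list had 4 calls under DESeq2, both voom fits and the other scalings, but 0 without FF_DMSO 1.

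Listed genes of sterol synthesis and efflux were not called by edgeR. Of 24 tested genes of sterol synthesis and its regulator SREBP2, 0 were called at an adjusted p under 0.05 in edgeR's quasi-likelihood test (median difference -0.06); 5 passed an unadjusted p of 0.05, DESeq2 called 1, and 14 had a 95% interval within 0.5. Idi1, an isomerase of the pathway, averaged 9.68 to 5.26 CPM in FF and 13.5 to 7.34 CPM in dMye, with a difference of -0.02 (95% interval -0.37 to 0.33, adjusted p = 0.979). The pathway enzymes Hmgcs1 and Sc5d had -0.10 (95% interval -0.24 to 0.04, adjusted p = 0.608) and -0.08 (95% interval -0.25 to 0.08, adjusted p = 0.726). Of 18 LXR targets and efflux genes, 0 were called in edgeR (median -0.03), 2 passed an unadjusted p of 0.05, DESeq2 called 1 (Arl4c), and 15 had an interval within 0.5. The cholesterol exporters had -0.24 (95% interval -0.59 to 0.11, adjusted p = 0.611) for Abca1 and -0.10 (95% interval -0.28 to 0.08, adjusted p = 0.705) for Abcg1, and the 3 members with the smallest SE 0.05 (95% interval -0.12 to 0.21, adjusted p = 0.883) for Pltp, -0.29 (95% interval -0.45 to -0.12, adjusted p = 0.0713) for Arl4c and -0.27 (95% interval -0.45 to -0.10, adjusted p = 0.123) for Mylip. The scavenger receptor Cd36 had -0.05 (95% interval -0.22 to 0.12, adjusted p = 0.867). These intervals bound the difference; a p above the threshold does not show that the effects were alike.

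**Figure D4:**
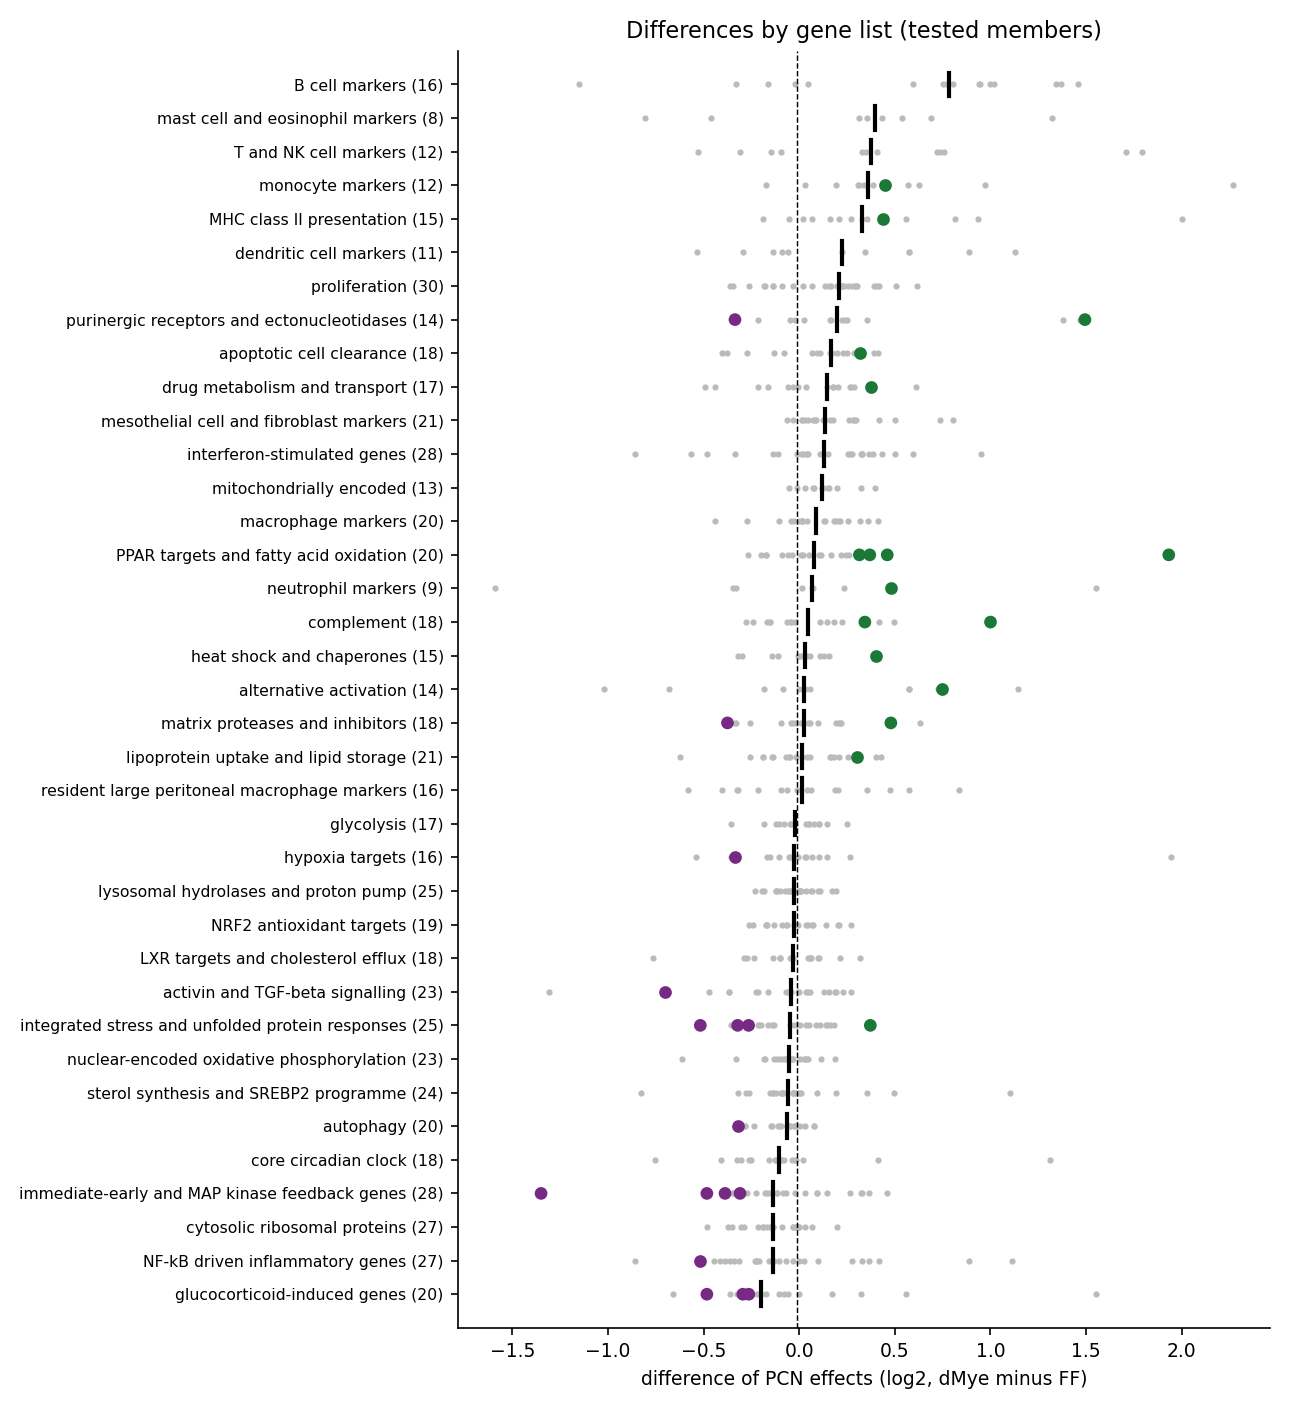
Difference of the PCN effects (x axis, log2, dMye minus FF) of each tested member of the 37 lists with 3 or more tested members (number in brackets); grey points were not called, coloured points were called higher (green) or lower (purple), black bars are list medians, and the dashed line is the median of all tested genes, -0.01. Called points lie to the right of the dashed line in the PPAR list and to the left in the feedback and glucocorticoid lists; the B cell marker list has the highest median, 0.79, and no called member.

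Genes of drug metabolism and transport gave 1 call in edgeR among 17 tested of 26 listed (5.88%, median 0.15). This was Abcb1b, 1 of the 2 mouse P-glycoprotein genes that export drugs, which averaged 39.6 to 29.1 CPM in FF and 43 to 41.7 CPM in dMye, with a difference of 0.37 (SE 0.0925, adjusted p = 0.0441). The call was lost without any of 15 of the 18 libraries (adjusted p up to 0.121, without FF_DMSO 1). In the other direction Por, the reductase that passes electrons to cytochrome P450 enzymes, had -0.22 (95% interval -0.34 to -0.10, adjusted p = 0.0673 in edgeR). Por is named after its values were seen, and it was called lower by DESeq2, the weighted voom fit and edgeR without dMye_DMSO 5 and 6. The neighbour of Abcb1b, Abcb1a, averaged 11.2 to 9.47 CPM in FF and 12.6 to 11.1 CPM in dMye, with 0.03 (95% interval -0.33 to 0.40, adjusted p = 0.971). Ugt1a7c, a glucuronosyltransferase named after its values were seen, had 0.39 (SE 0.0724, adjusted p = 0.00861). It shares its last exons with the other genes of the Ugt1a locus, so its counts are divided by estimate. Hspa8, a constitutive heat shock protein with processed copies in the genome, had 0.40 (SE 0.0689, adjusted p = 0.00557), the 1 call among 15 chaperones (6.67%, against 1.42% over all genes). Ugt1a7c and Hspa8 kept their calls without each library.

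Tlr8, an endosomal receptor for RNA on the X chromosome, stood at 23.4, 18.8 and 23.5 CPM in the FF_DMSO libraries and 8.14, 6.13 and 8.01 CPM in the FF_PCN libraries. Tlr8 in dMye had a lowest, median and highest level of 14, 16.7 and 18.6 CPM with DMSO and 9.33, 10.2 and 11.7 CPM with PCN. FF_PCN libraries were below all others, and the difference was 0.87 (SE 0.161, adjusted p = 0.00861). Tlr1, a partner of Tlr2 for bacterial lipopeptides, had 0.70 (SE 0.171, adjusted p = 0.0431), and Cd180, a TLR4-like receptor, 0.37 (SE 0.079, adjusted p = 0.0208). Nfam1, an ITAM receptor, had 0.49 (SE 0.0771, adjusted p = 0.00312), and Mpeg1, the macrophage pore former perforin-2, 0.32 (SE 0.0567, adjusted p = 0.00618). Another receptor, Clec4e (Mincle, for mycobacterial glycolipids), was called in the other direction, with -0.43 (adjusted p = 0.0326, called in 20 of 27 alternatives). These 6 genes and the adhesive glycoprotein gene Thbs1, with 0.55 (SE 0.133, adjusted p = 0.0416), are named after their values were seen. Thbs1 stood at 42.2 to 50.4 CPM in FF_DMSO and 32.5 to 34.2 in FF_PCN. In dMye it stood at 76.5 to 109 CPM with DMSO and 86.6 to 114 with PCN. This higher level in dMye went with the higher mesothelial and fibroblast sums above, whose part in its difference was not tested. Tlr8, Nfam1 and Mpeg1 kept their calls without each library. The calls were lost for Tlr1 in 12 (adjusted p up to 0.112, without FF_DMSO 2), Cd180 in 3 (adjusted p up to 0.0773, without FF_DMSO 1) and Thbs1 in 11 (adjusted p up to 0.142, without FF_DMSO 1) of 18 cases.

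Listed immune genes added single calls. The C-type lectin gene Clec10a was the 1 call among 14 genes of alternative activation (7.14%, against 1.42% over all genes), with 0.75 (SE 0.159, adjusted p = 0.0208). Axl, a receptor for apoptotic cells, had 0.32 (SE 0.0758, adjusted p = 0.0369). It averaged 28.1 to 23.4 CPM in FF and 52.9 to 55.9 CPM in dMye. Its higher level in dMye went with the higher mesothelial and fibroblast sums above, whose part in its difference was not tested. The matrix lists gave the collagenase Mmp8, also a neutrophil marker, with 0.48 (SE 0.12, adjusted p = 0.0468), and in the other direction Plau, the urokinase gene, with -0.37 (SE 0.0862, adjusted p = 0.0307). Among 14 purinergic genes (14.3% called) P2ry6 was higher and P2ry2, a receptor for ATP and UTP, lower, with -0.34 (SE 0.0806, adjusted p = 0.0388). Leaving out 1 library ended the call of Clec10a in 3 (adjusted p up to 0.0625, without FF_DMSO 1), Axl in 8 (adjusted p up to 0.103, without FF_PCN 1), Mmp8 in 15 (adjusted p up to 0.11, without FF_PCN 2), Plau in 10 (adjusted p up to 0.137, without FF_DMSO 3) and P2ry2 in 12 (adjusted p up to 0.133, without FF_DMSO 1) of 18 cases.

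Cd74, the invariant chain of MHC class II, stood at 246, 230.0 and 227 CPM in the FF_DMSO libraries and 179, 149 and 157 CPM in the FF_PCN libraries. Cd74 in dMye had a lowest, median and highest level of 129.6, 139.6 and 151 CPM with DMSO and 125, 132 and 149.8 CPM with PCN. FF_DMSO libraries were above all others, and the difference was 0.44 (SE 0.0833, adjusted p = 0.0105), the 1 call in edgeR among 15 genes of the class II list (6.67%, median 0.33, 13 positive). In that list 6 passed an unadjusted p of 0.05 in edgeR, and DESeq2 and the weighted voom fit each called 3 higher. F13a1, a coagulation factor of monocytes, was the 1 call among 12 monocyte markers (8.33%, median 0.36), with 0.45 (SE 0.113, adjusted p = 0.0468). The call was lost for Cd74 in 2 (adjusted p up to 0.0625, without FF_DMSO 1) and F13a1 in 13 (adjusted p up to 0.149, without FF_DMSO 2) of 18 cases. The sums of markers of some other cells were as follows. The 16 neutrophil markers, 1 of them at 0 in every library, summed to 169 to 172 CPM in FF_DMSO and 129 to 142 in FF_PCN. In dMye their sum was 119 to 138 CPM with DMSO and 118 to 136 with PCN, and Mmp8 is among them. The 16 markers of resident large peritoneal macrophages summed to 1189 to 1248 CPM in FF_DMSO and 968 to 1068 in FF_PCN. Their sum in dMye was 1572 to 1892 CPM with DMSO and 1503 to 1565 with PCN. The 12 monocyte markers, all detected, summed to 235 to 253 CPM in FF_DMSO, 199 to 217 in FF_PCN, 371 to 445 in dMye_DMSO and 351 to 419 in dMye_PCN. The 16 B cell markers, all detected, summed to 301 to 338, 286 to 301, 282 to 309.6 and 284 to 301 CPM in the same order, a sum that macrophage-expressed Cd37 enters. The 19 T and NK cell markers, all detected, summed to 941 to 999.7 CPM in FF_DMSO and 1129.9 to 1270.5 in FF_PCN. In dMye their sum was 739 to 856 CPM with DMSO and 889.9 to 1029.8 with PCN. This sum was higher with PCN in both genotypes, but in FF it did not follow the median member. The median PCN effect of the 12 tested members was -0.23 in FF and 0.23 in dMye. Of these 12 T and NK genes, 0 were called in edgeR or DESeq2 and 1 passed an unadjusted p of 0.05. The B cell gene Cd79a averaged 5.93 to 3.18 CPM in FF and 1.83 to 1.98 CPM in dMye, with a difference of 1.00 (95% interval 0.37 to 1.62, adjusted p = 0.106). Ms4a1, another B cell gene, averaged 3.42 to 1.55 CPM in FF and 0.836 to 1.06 CPM in dMye, with 1.46 (95% interval 0.51 to 2.41, adjusted p = 0.122). Both are named after their values were seen. Of the 16, 12 were positive, the lowest was Cr2 with -1.15, and 0 were called in edgeR (median 0.79); 5 passed an unadjusted p of 0.05, and Cd79a and Ms4a1 passed in DESeq2. The part of these cells in the differences was not tested.

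Macrophage identity genes depended on the tool. Of 20 tested markers, 0 were called in edgeR (median 0.09) and 9 passed an unadjusted p of 0.05; DESeq2 called 4 higher and 1 lower. For 15 the interval was within 0.5. Timp2 had 0.21 (95% interval 0.10 to 0.33, adjusted p = 0.0652), the growth factor receptor Csf1r 0.21 (95% interval 0.07 to 0.34, adjusted p = 0.119) and Adgre1, which encodes F4/80, 0.13 (95% interval -0.01 to 0.28, adjusted p = 0.428). Timp2 passed in 6 alternatives and Csf1r in DESeq2 and the weighted voom fit. Lyz2, the macrophage lysozyme gene, which shares reads with Lyz1, averaged 7141 to 4392 CPM in FF and 4059.9 to 3273 CPM in dMye, with 0.36 (95% interval 0.03 to 0.69, adjusted p = 0.338); without dMye_DMSO 5 it passed the threshold. In edgeR 0 members were called of 25 listed lysosomal hydrolases and proton pump genes, all with an interval within 0.5. The lysosomal acid lipase gene Lipa, called higher with 0.30, stands in the list of lipoprotein uptake and storage instead. In edgeR 0 were called also of 28 listed interferon-stimulated genes (median 0.13, 9 with an interval within 0.5), 30 proliferation genes (median 0.21, 7 within), 19 NRF2 targets (median -0.03, 17 within) and 18 clock genes (median -0.11, 11 within). Of the interferon-stimulated genes 21 were positive (75%, against 47.5% of all tested genes). Ly6e, induced by interferon and called higher with 0.68, is not in that list, so its 0 covers listed genes only. At an unadjusted p of 0.05, 5 lysosomal, 5 interferon-stimulated, 3 proliferation, 5 NRF2 and 5 clock genes passed, and DESeq2 called 1 of each list. The share of counts from mitochondrially encoded genes was 1.81 to 2.02% in FF_DMSO, 1.46 to 1.72% in FF_PCN, 1.66 to 2.18% in dMye_DMSO and 1.60 to 1.93% in dMye_PCN, and 0 of its 13 genes were called in edgeR or DESeq2, with 1 at an unadjusted p of 0.05. Over all 38 lists, 663 different genes were tested, of which 16 were called higher and 15 lower (4.68%), and 19 lists had no called member.

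The number of calls depended on the FF libraries, of which there were 3 a group. Left out 1 at a time, they brought the 190 calls to 42 (without FF_DMSO 1), 104 (FF_DMSO 2), 50 (FF_DMSO 3), 105 (FF_PCN 1), 62 (FF_PCN 2) and 93 (FF_PCN 3). Of the 190, 41 kept the call without FF_DMSO 1 and 185 without dMye_DMSO 5. The 21 genes named here that kept it in each of 27 alternatives were Gdf15, Csrnp1, Ppp1r15a, Dusp1, Ccl3 and Rhov, lower in dMye, and Enpp1, Trim16, Slit2, P2ry6, Kctd12b, Txnip, Shtn1, Ly6e, Esyt1, Nfam1, Mpeg1, Tlr8, Lipa, Hspa8 and Ugt1a7c, higher. Over all 190 called genes, 34 did so, 23 higher and 11 lower. A test against a 1.2-fold difference, in place of 0, called 8 genes: Gdf15, Shtn1, Txnip, Ly6e, Enpp1, Trim16, Slit2 and P2ry6.

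**Figure D5:**
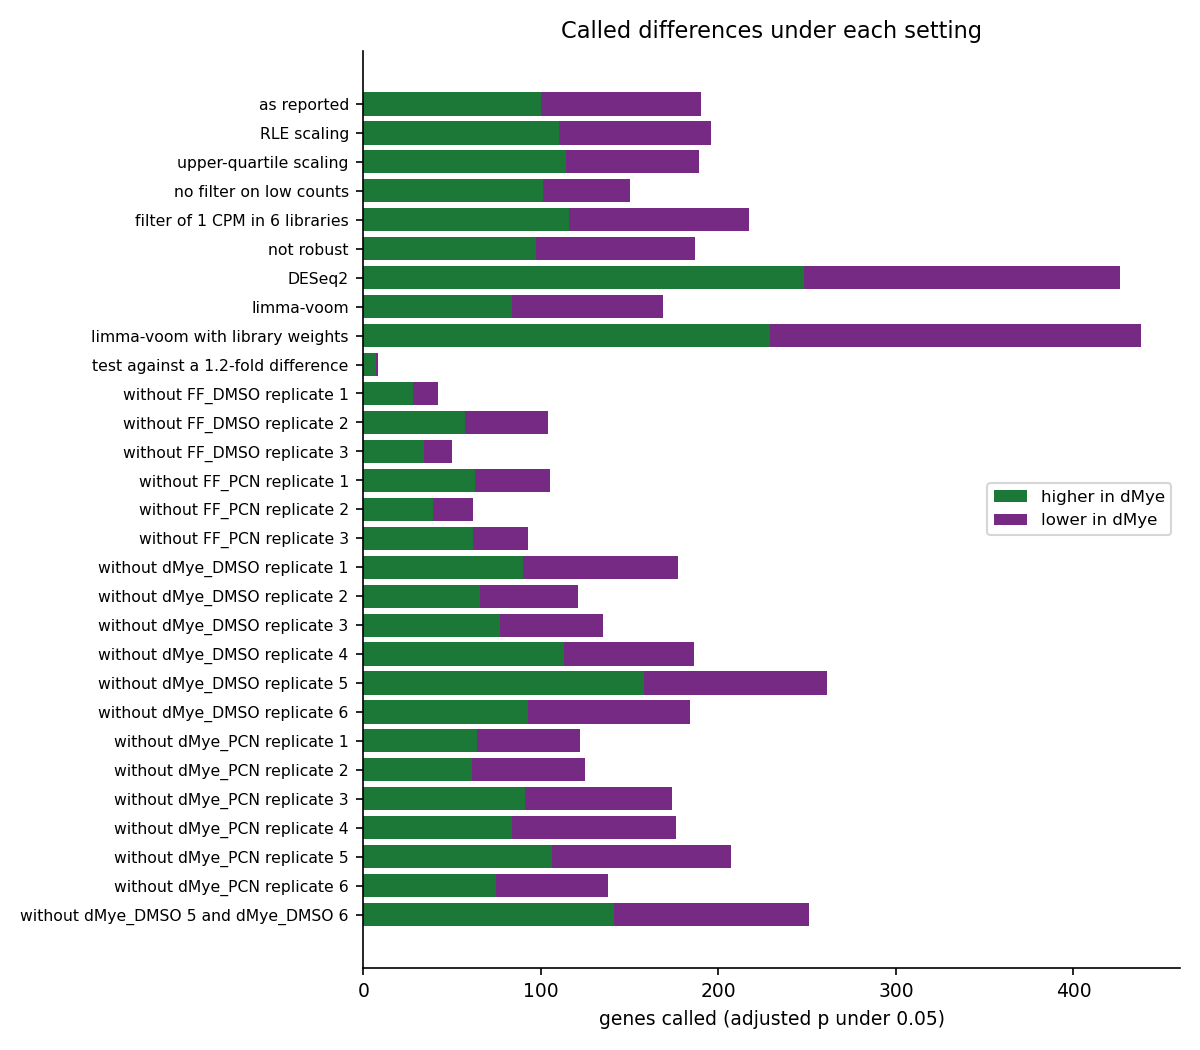
Number of genes called (x axis) in the analysis as reported and under each alternative, split into higher (green) and lower (purple) in dMye. The bars run from 8 for the test against a 1.2-fold difference to 438 for the weighted voom fit, and leaving out 1 FF library gives 42 to 105.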

How the data were processed

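RNA of cultured peritoneal macrophages was sequenced in 18 libraries. Expected counts, that is estimated reads per gene symbol, were deposited by the authors. The submitters' processing notes name the build mm10. Aligner, quantifier, annotation and strand setting were not given in the sources used here. Expected counts were rounded, and of 21831 rows, 3171 were at 0 throughout and 26 carried date-like symbols, which were kept but not named. One edgeR 4.0.16 quasi-likelihood fit (R 4.3.3, TMM, filterByExpr, robust, 4 groups, no covariates) gave the difference of the PCN effects (biological coefficient of variation 9.69%). Its SE is the size over the square root of F, intervals are moderated 95% intervals, and p-values were adjusted by Benjamini-Hochberg over 13409 genes. TMM factors were 0.967 to 1.04. The script was tested on simulated data. Alternatives used DESeq2 1.42.0 and limma 3.58.1, other scalings and filters, and omitted libraries. Group membership comes from the labels of genotype and agent; replicate numbers only name libraries.

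Genes were named by rule: the 12 largest called differences in each direction with a group mean of at least 1 CPM, up to 3 called members of each of 38 lists, 3 members with the smallest SE in 4 lists, and 13 genes always given. Some items are not reported here. Another 21, then 5 with a promoter motif, Clec4e, Por, Marco and Cr2, were named after their values were seen, and Ier5, Trib3 and Acaa2 to complete short counts. Members and lists were chosen with earlier results of these data known, and some genes stand in more than 1 list. List counts and medians carry no test. Near-identical, overlapping and antisense genes are not fully separated in these counts. Coordinates are from GENCODE M21 (GRCm38), matched by symbol for 86 of 88 genes of the rule and the first addition; promoter sequence is from RefSeq.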

Additional observations from a re-analysis of the deposited data

Results flagged for a closer look

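Single libraries stood apart from the other 5 of their group for 10 genes (Abcg1 in both groups) and 1 marker sum, by a gap larger than Dixon's 95% critical value, in 12 of 184 groups checked; chance gives about 1 in 20. Cenpk had 0.831 CPM in dMye_PCN 4, the lowest (others 1.06 to 1.16). Alkbh7 had 18.8 CPM in dMye_DMSO 5, the highest (others 14.9 to 16.2). Tgm2 had 201 CPM in dMye_PCN 5, the lowest (others 211 to 217). Clec10a had 16.1 CPM in dMye_DMSO 5, the highest (others 13.3 to 14.4). Nfkb2 had 87.5 CPM in dMye_PCN 5, the lowest (others 97.1 to 101). Lyz2 had 5350 CPM in dMye_DMSO 5, the highest (others 3650 to 4030). Abcg1 had 220 CPM in dMye_DMSO 5, the lowest (others 260 to 279). Abcg1 had 408 CPM in dMye_PCN 4, the highest (others 346 to 359). Tnf had 13.4 CPM in dMye_DMSO 5, the highest (others 12.9 to 13). Esyt1 had 237 CPM in dMye_DMSO 5, the lowest (others 266 to 278). Tlr1 had 10.2 CPM in dMye_PCN 1, the highest (others 7.4 to 8.08). Macrophage markers had 23376 CPM in dMye_DMSO 5, the highest (others 18601 to 20000). Library dMye_DMSO 5 accounts for 7 of the 12, and it had the lowest weight of all libraries in the weighted voom fit, 0.307.

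The PCN effects of the genotypes differed by a test of the difference itself in 190 genes, 100 higher and 90 lower in dMye. In log2, the named higher differences were 2.86 for Mrgprf, 1.97 for Cenpk, 1.93 for Angptl4, 1.49 for P2ry6, 1.49 for Arrdc3, 1.44 for Gucy1a3, 1.21 for Trim16, 1.16 for Slx4ip, 1.00 for C5ar1, 1.00 for Enpp1, 0.98 for Kctd12b and 0.87 for Tlr8. Smaller ones were 0.75 for Clec10a, 0.70 for Tlr1, 0.68 for Ly6e, 0.61 for Txnip, 0.56 for Shtn1, 0.55 for Thbs1, 0.49 for Esyt1, 0.49 for Nfam1, 0.48 for Mmp8, 0.45 for F13a1, 0.44 for Cd74, 0.40 for Hspa8, 0.39 for Ugt1a7c, 0.37 for Abcb1b, 0.37 for Psat1, 0.37 for Cd180, 0.37 for Ucp2, 0.35 for Pla2g7, 0.32 for Mpeg1, 0.32 for Axl, 0.31 for Cpt1a and 0.30 for Lipa. The named lower differences were -2.92 for Evc2, -1.91 for Zdhhc2, -1.35 for Dusp8, -1.16 for Rin1, -0.84 for Pcnx, -0.74 for Pex16, -0.70 for Inhba, -0.68 for Alkbh7, -0.67 for Csrnp1, -0.66 for Cyr61, -0.64 for Gdf15 and -0.61 for Tnfrsf12a. Below these in size were -0.52 for Ccl3, -0.52 for Ppp1r15a, -0.48 for Dusp1, -0.46 for Rhov, -0.43 for Pmaip1, -0.42 for Bbc3, -0.39 for Junb, -0.37 for Plau, -0.34 for Bcl2l1, -0.34 for P2ry2, -0.33 for Vegfa, -0.32 for Atf3, -0.32 for Gabarapl1, -0.31 for Rxrb, -0.29 for Tgm2, -0.29 for Hk3, -0.28 for Flcn and -0.26 for Sgk1. For Slit2 the fitted value was 7.04, which depends on the prior count because the FF_PCN libraries are at 0, and it is no measure of size.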

How the results depend on the processing

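No paired analysis was possible because the labels carry no replicate numbers. In all, 28 alternatives were run. DESeq2 called 426 genes (248 higher, 178 lower), limma-voom with library weights 438 (229 and 209), and a test against a 1.2-fold difference 8 (7 and 1). Without a filter on low counts, 49 genes were called lower. Leaving out 1 library at a time gave 42 to 261 calls, 28 to 158 of them higher and 14 to 103 lower, with the lowest counts without FF_DMSO 1 and the highest without dMye_DMSO 5. Other settings stayed within 1.5 times: 196 calls with RLE scaling, 189 with upper-quartile scaling, 187 with a fit that was not robust, 169 with limma-voom, 217 with a filter of 1 CPM in 6 libraries and 251 without dMye_DMSO 5 and 6. The share of higher calls was 52.6% as reported, 56.1% with RLE scaling and 60.3% with upper-quartile scaling, but 67.3% without a filter. Of the reported calls, 185 were also called by DESeq2 and 167 by limma-voom. The cause of these shifts was not tested. Of the 190 reported calls, 34 held in each of 27 alternatives, and 8 in the test against a 1.2-fold difference. Of the 65 called genes named by the rule or in the first addition to it, 0 changed sign. Among the 38 list medians, 13 changed sign in at least 1 scaling or leave-one-out setting. Genes under 1 CPM had a median SE of 0.76, so depth limits what can be said of them.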

Other observations

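Some lists leaned to 1 side with 0 or 1 called member in edgeR. Of 27 cytosolic ribosomal protein genes, 4 had a positive difference (median -0.14), with 0 called in edgeR or DESeq2 and 0 at an unadjusted p of 0.05. Of 18 clock genes 3 were positive (median -0.11), and of 30 proliferation genes 21 were positive (median 0.21). Positive differences were also held by 11 of 12 monocyte markers, 11 of 13 mitochondrially encoded genes and 21 of 28 interferon-stimulated genes. Over all tested genes 47.5% were positive. In the autophagy list 4 of 20 were positive (median -0.06), with 1 call in edgeR and 4 in DESeq2, all lower. Members of such lists vary together between libraries, so these counts are descriptions.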
